A study of Arabidopsis thaliana with 14 samples.

Results

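The chalazal seed coat is the maternal tissue at the base of the seed, where the vascular strand of the funiculus ends. Laser-captured chalazal seed coat of Arabidopsis thaliana was measured on 2 of the 14 arrays of the series and set against each of the other 5 seed compartments. Of 22746 probe sets that were not controls, 275 (1.21%) had a mean signal in chalazal seed coat at least 4-fold above the highest mean of any other compartment. These 275 probe sets are called members below. The platform table gave 136 of them 1 gene (135 loci), 1 several genes and 138 no gene, and for 23 it held a symbol besides the locus number.

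All samples came from Ws-0 plants and were taken as mature green seeds, when the cotyledons reach the chalazal pole and no seed coat layer has collapsed. Siliques of 1.8 to 2.0 cm came from plants 38 to 46 days old kept at constant light, and were fixed in ethanol and acetic acid before sectioning. The groups were chalazal seed coat, seed coat, chalazal endosperm, peripheral endosperm, micropylar endosperm, embryo proper and whole seeds, with 2 arrays each. Whole seeds were captured from serial sections and did not enter the choice of members. The labels give each pair as biological replicates without naming plants or seeds. A p-value here therefore reflects only the spread between the 2 captures within groups, pooled over the 6 compartments and moderated across probe sets. RNA of 5 to 6 ng per sample was amplified before hybridisation.

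The seed lives on sugars, amino acids and minerals that leave the phloem at the chalaza, pass through cells of the seed coat and are exported towards the endosperm and embryo, since no plasmodesmata join the mother plant to its offspring. SWEET proteins carry sugars out of cells along a gradient, and sucrose-phosphate synthase rebuilds sucrose inside them. Cytokinin, a hormone of cell division and nutrient sinks, is read through a phosphorelay that response regulators end. The chalazal seed coat also makes condensed tannins, the flavonoid polymers that brown the testa.

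Below, a signal is the deposited linear intensity of an array. Means were taken on the log2 scale after values under 25 were raised to 25, and a margin is the mean of chalazal seed coat minus the highest mean among the other 5 compartments. A margin of 2 is 4-fold. Where an array of the next-highest compartment lay under 25 the margin is a lower limit, as for 59 of the 275 members. Signals of different probe sets do not rank their transcripts. The members were chosen by these same values, so their margins are a description without a test.

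SWEET10, RR22 and HAT2, given as markers of the tissue, were all members. SWEET10 (AT5G50790), a plasma-membrane sugar exporter, had signals of 34178 and 18253 in chalazal seed coat and between 4.15 and 42.5 on the 10 arrays of the other compartments. Its margin of 9.58 over embryo proper (at least 766-fold) was the largest of all members. The 2 whole-seed arrays read 587 and 496, above every array of the other 5 compartments.

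RR22 (AT3G04280), a response regulator of the cytokinin phosphorelay known from the junction of seed and funiculus, reached 23601 and 18562 in chalazal seed coat. It was 310 and 655 in seed coat, 628 and 240 in chalazal endosperm, and 4.99 to 133 on the other 6 compartment arrays. The RR22 signals of both neighbouring tissues thus lay about equally far below (margin 5.54 over seed coat, difference 5.75 from chalazal endosperm). The part of chalazal seed coat RNA in those 2 captures was not tested. HAT2 (AT5G47370), an auxin-induced transcription factor of the HD-ZIP II class, had 11013 and 7240 in chalazal seed coat, 144 and 44.0 in embryo proper and 23.9 and 219 in seed coat. The remaining 6 compartment arrays read 4.70 to 72.1, and the margin was 6.81. Whole seeds read 11.1 and 214 for HAT2. The 2 arrays of HAT2 differed more in embryo proper, seed coat and chalazal endosperm than in chalazal seed coat, so the order of these 3 is not established.

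**Figure D1:**
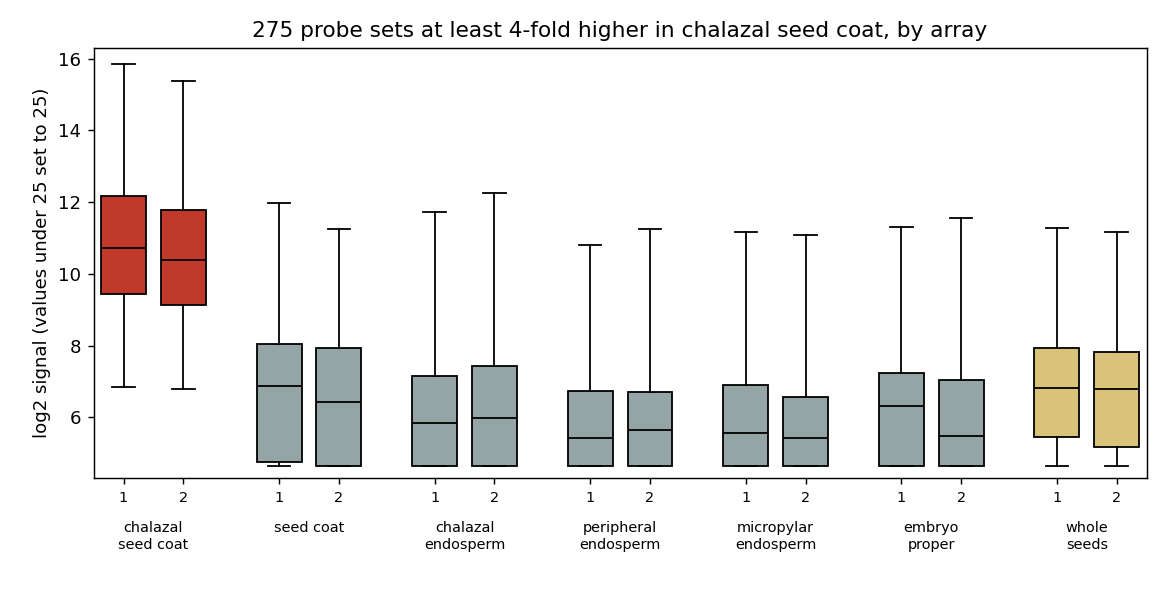
Log2 signal of the 275 members on each of the 14 arrays, in pairs of replicates 1 and 2 per group on the x axis. Boxes span the quartiles with the median as a line, whiskers the full range, and values under 25 are drawn at 25. Median member signals were 1696 and 1337 in chalazal seed coat, 118 and 86.4 in seed coat and 43.2 to 79.8 on the arrays of embryo and endosperm.

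The sugar and transport genes among the members were SWEET10, ATSPS4F, PWD, ZIP6 and AZG1. ATSPS4F (AT4G10120), a sucrose-phosphate synthase, read 14157 and 14012 in chalazal seed coat, 305 and 558 in seed coat and 55.9 to 177 on the 8 arrays of embryo and endosperm. Both chalazal arrays agreed closely, and seed coat was next at a margin of 5.09 (34.1-fold). ZIP6 (AT2G30080), of the zinc and iron transporter family, was spread more widely, with 7440 and 4170 in chalazal seed coat and 165 to 971 elsewhere in the compartments (margin 2.88). PWD (AT4G24450), which the gene table also names ATGWD2, of the water dikinase family, had 718 and 815 in chalazal seed coat against at most 197 elsewhere (margin 2.39). AZG1 (AT3G10960), a purine transporter, was dim, with 218 and 180 in chalazal seed coat against at most 81.0, and its margin of 2.14 fell to 0.99 with a floor of 100 and 1.29 without micropylar endosperm replicate 2.

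The other SWEET genes had other patterns. Of 33 loci listed for sugar and amino acid transport, 16 had a named probe set, all of them SWEET genes, and 8 were tested. SWEET10 was the 1 of 8 called higher in chalazal seed coat in each of the 5 comparisons, beside 1.91% of all tested probe sets. The rule chose SWEET10 by these same contrasts, so nothing is read from this call. SAG29 (AT5G13170), also known as SWEET15, went the other way between the seed coat parts, with 252 and 316 in chalazal seed coat against 13994 and 15670 in seed coat (log2 difference -5.71 ± 0.47 SE, limma adjusted p = 4.22e-06). SWEET4 (AT3G28007) and SWEET2 (AT3G14770) were called higher against the embryo and endosperm parts and not against seed coat. SWEET4 had 165 and 190 in chalazal seed coat against 131 and 67.7 in seed coat, and SWEET2 256 and 144 against 689 and 377. SWEET13 (AT5G50800), dim and not tested, had 103 and 120 in chalazal seed coat against at most 94.4. SWEET7 (AT4G10850) had 1579 and 3088 in chalazal seed coat against 463 and 620 in seed coat, and 3815 to 6911 in chalazal endosperm. SWEET11 (AT3G48740) was called lower than in chalazal and peripheral endosperm. It had 866 and 1469 in chalazal seed coat against 4648 to 8040 in those endosperm parts.

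Members with a role in hormone and peptide signalling were RR22, GH3.3, PSY1R and ARL. GH3.3 (AT2G23170), an enzyme that conjugates auxin to amino acids, had 1129 and 714 in chalazal seed coat, 96.3 and 129 in embryo proper and at most 76.6 in the other compartments (margin 3.01). ARL (AT2G44080), an ARGOS-like protein of cell expansion, read 2146 and 1315 in chalazal seed coat and 271 and 349 in seed coat, the next tissue. The embryo and endosperm arrays read 3.52 to 77.2 for ARL, so both seed coat parts lay above them. PSY1R (AT1G72300), the receptor kinase of a sulphated growth peptide, had 460 and 673 in chalazal seed coat against 21.5 and 248 in seed coat, a margin of 2.82 that fell to 1.17 without seed coat replicate 1.

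Of 45 listed cytokinin loci 5 had a named probe set and 2 were tested. RR22 was called higher in all 5 comparisons, beside 1.91% of all tested probe sets. The rule chose RR22 by these same contrasts, so nothing is read from its call. RR16 (AT2G40670), a cytokinin-induced response regulator, was called higher than in micropylar endosperm and embryo proper, and read 2502 and 986 in chalazal seed coat against 1939 and 733 in seed coat. RR22 was a member and RR16, with a margin of 0.33, was not.

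HAT2, bZIP44, GT2 and UPB1 were the transcription factors with a symbol. bZIP44 (AT1G75390), a basic leucine zipper factor with a known part in germination, had 18430 and 26640 in chalazal seed coat, 1778 and 2421 in peripheral endosperm, 1208 and 914 in seed coat and 932 and 1232 in chalazal endosperm. Micropylar endosperm read 485 and 478 and embryo proper 290 and 138. bZIP44 was therefore measured well above 25 in every compartment, and its next tissue was peripheral endosperm at a margin of 3.42 (10.7-fold). GT2 (AT1G76890), a trihelix factor, had 239 and 606 against at most 52.5. UPB1 (AT2G47270), a basic helix-loop-helix factor that represses peroxidases in the root, had 971 and 223 against at most 68.0, and its margin of 2.90 was 1.83 without chalazal seed coat replicate 1. GT2 and UPB1 read 1.72 to 6.15 in whole seeds.

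The cell wall and membrane genes were PME61, ADPG1, TET5 and AT2G31110. PME61 (AT3G59010), a pectin methylesterase, had 4849 and 2874 in chalazal seed coat against 2.16 to 200 in the other compartments (margin 5.72). ADPG1 (AT3G57510), a polygalacturonase of pod opening and organ abscission, had 1298 and 846 against 2.92 to 128 (margin 4.03). Both enzymes act on pectin. PME61 was next-highest in seed coat, whose arrays read 200 and 7.17, and ADPG1 in peripheral endosperm, at 69.2 and 59.1. For ADPG1, seed coat read 128 and 22.6 and micropylar endosperm 56.3 and 60.1, so the order of these tissues is not established. TET5 (AT4G23410), a tetraspanin, had 2582 and 2167 against 8.05 to 133 (margin 5.36). AT2G31110, which the gene table also names TBL40, of the family that acetylates wall polysaccharides, had 2 probe sets, and both were members, with 1122 and 933 on the brighter and 323 and 246 on the dimmer (margins 4.94 and 2.52).

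Tannin genes were lower on chalazal seed coat replicate 1 than on replicate 2. BAN (AT1G61720), the anthocyanidin reductase that makes tannin units, had 357 and 1189 in chalazal seed coat against 24.0 and 24.8 in seed coat and at most 54.9 elsewhere. DFR (AT5G42800), the reductase that supplies it, had 932 and 2907 in chalazal seed coat, 185 and 292 in seed coat and 2.55 to 133 in embryo and endosperm. Both genes kept their chalazal arrays above every other array (margins 4.14 and 2.83). Of 18 flavonoid loci listed only these 2 had a named probe set. Both were called higher in each comparison, beside 1.91% of all tested probe sets. The rule chose both genes by these same contrasts, so nothing is read from this count. Against seed coat, 0 of the 2 were called with no floor, and 1 with no filter, without seed coat replicate 1 or without chalazal seed coat replicate 2. BAN was next-highest in micropylar endosperm, on 1 array of which it lay under 25.

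The cytochromes P450 CYP718 (AT2G42850) and CYP71B6 (AT2G24180) had 952 and 570, and 989 and 736, in chalazal seed coat. CYP718 was under 25 on 9 of the 10 other compartment arrays and 48.4 on the remaining array, in peripheral endosperm. CYP71B6 reached 284 on a seed coat array and 186 in embryo proper. Among genes of protein breakdown, scpl31 (AT1G11080), a serine carboxypeptidase-like protein, had 14103 and 5312 in chalazal seed coat against 138 and 178 in chalazal endosperm (margin 5.79). UBC29 (AT2G16740), a ubiquitin-conjugating enzyme, had 426 and 481 against at most 50.2. ATL5 (AT3G62690), a RING-type ubiquitin ligase, had 922 and 228 in chalazal seed coat against 226 and 5.34 in seed coat, so its arrays barely separated, and its margin of 2.61 was 1.02 without seed coat replicate 2.

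**Figure D2:**
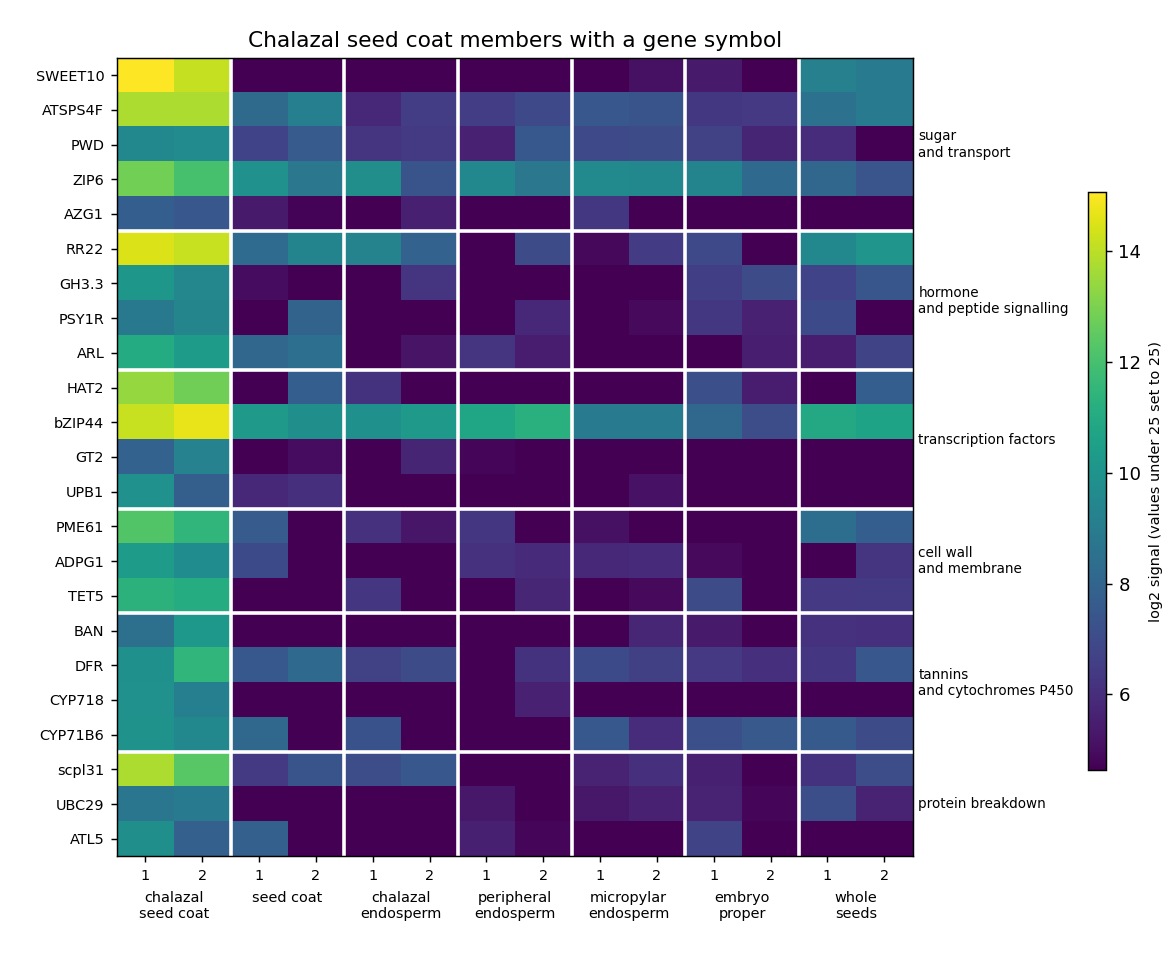
Log2 signal of the 23 members with a gene symbol (rows, grouped by role) on the 14 arrays (columns, replicates 1 and 2 of each group), with values under 25 drawn at 25. SWEET10, RR22, ATSPS4F and bZIP44 are bright in chalazal seed coat, and bZIP44 and ZIP6 are over 100 on every array.

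Among members with 1 gene, many of the large margins belonged to loci with no symbol, for which the tables give no role. AT3G14780 had 10074 and 8283 in chalazal seed coat against 2.84 to 56.0 elsewhere (margin 7.93). AT1G62480 had 45207 and 42361 against 91.3 to 352 (margin 7.21), with seed coat next. Whole seeds carried 1102 and 841 of AT1G62480, above every array of the other 5 compartments. AT3G19550 (margin 6.77), AT5G49320 (6.76), AT5G24580 (6.53), AT1G43910 (6.50), AT5G47920 (6.25) and AT5G40980 (5.83) followed. AT5G24580 had 19523 and 16382 in chalazal seed coat and was next-highest in chalazal endosperm at 185 and 203. Its seed coat arrays read 98.2 and 352 (log2 difference 6.59, beside 6.53 from chalazal endosperm), so the order of these tissues is not established. AT1G43910 had 12936 and 13233 against at most 167.

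AT1G22885, AT4G09890, AT5G03510, AT1G74055, AT2G27240, AT4G33550, AT3G47540, AT4G20320 and AT4G39780 completed the 25 largest margins of members with 1 gene. Their margins ran from 5.41 for AT1G22885 to 4.93 for AT4G39780. AT4G33550 differed most between the chalazal arrays among members with 1 gene (700 and 5009). AT1G74840 and AT4G14270 were among the 10 brightest in chalazal seed coat of the members with 1 gene, and had margins of only 3.07 and 2.39. AT4G14270 had 16582 and 12797 in chalazal seed coat against 2545 and 3017 in embryo proper and 2779 and 2456 in seed coat, whose arrays overlapped.

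The members ran from just over 4-fold to at least 766-fold. Of the 275, 132 were at least 8-fold, 69 at least 16-fold, 35 at least 32-fold and 15 at least 64-fold above the next compartment, with a median margin of 2.96 (7.81-fold). Their mean signals in chalazal seed coat ran from 117 to 43784 with a median of 1578, and 175 were over 1000. Of the 138 members with no gene, 13 were at least 32-fold, and their median margin was 2.75, against 3.07 for the 136 with 1 gene. At the 4-fold limit, AT2G25990 (2.03), AT2G36970 (2.01) and AT5G40450 (2.01) were just inside. AT2G15580 (1.99), AT1G76590 (1.98) and AT3G14560 (1.97) were just outside, the last with 17621 and 10421 in chalazal seed coat and 4786 and 2489 in seed coat.

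Seed coat was most often the next-highest compartment. The rule capped the levels of these 5 compartments, so the places are a description. Seed coat was next for 113 members (41.1%), embryo proper for 65 (23.6%), chalazal endosperm for 47 (17.1%) and peripheral and micropylar endosperm for 24 each (8.73%), while 2 members had no other compartment above 25. Over the 14148 probe sets tested, the highest of the same 5 compartments was seed coat for 30.2%, embryo proper for 23.5%, chalazal endosperm for 20.6%, micropylar endosperm for 13.4% and peripheral endosperm for 12.2%. The order is firmer where the next tissue is bright. In 59 members it exceeded a signal of 100 and lay at least 2-fold above the remaining 4, and of these 37 had seed coat, 10 embryo proper, 9 chalazal endosperm, 2 peripheral and 1 micropylar endosperm in that place. Seed coat arrays had fewer values under 25 over all probe sets (17.3 and 17.5%) than the other compartment arrays (18.8 to 22.5%), and the part of this in the count was not tested. Between seed coat and chalazal endosperm, limma called 31 of 267 tested members higher in seed coat (11.6%) and 11 lower (4.12%), beside 12.3% and 12% of all probe sets. The rule capped the members' levels in both tissues, and 174 passed the filter on dim probe sets through chalazal seed coat alone, so nothing is read from these shares.

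**Figure D3:**
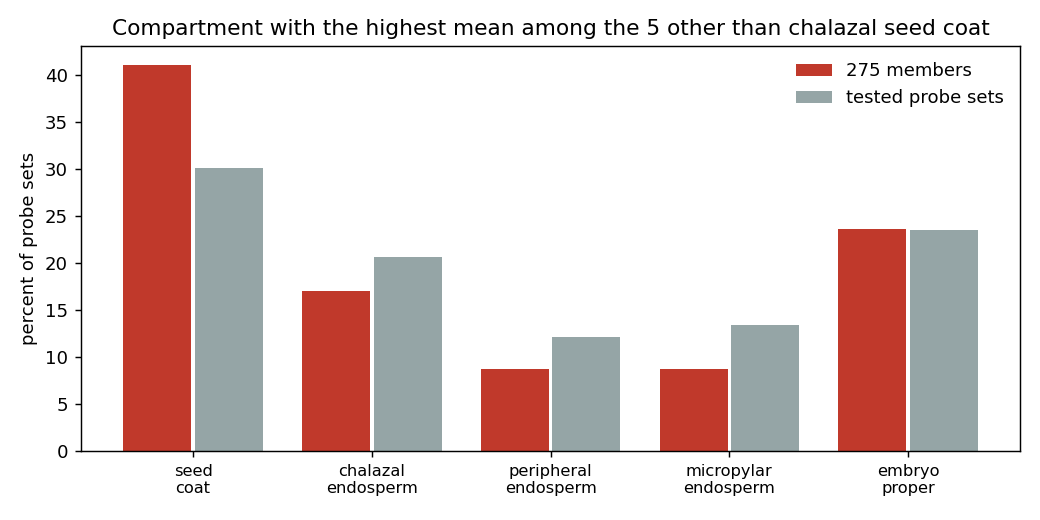
Percent of probe sets (y axis) whose highest mean among the 5 compartments other than chalazal seed coat was in the compartment on the x axis, for the 275 members and for the 14148 tested probe sets. Seed coat holds 41.1% of the members and 30.2% of the tested probe sets, and the other bars of the members are at or below 23.6%.

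The whole-seed arrays, which the choice of members did not use, carried the members at lower levels than chalazal seed coat, in which they were chosen to be high. Members had a median mean signal of 1578 in chalazal seed coat and 105 in whole seeds, and the median ratio was 14.2-fold (log2 3.83, beside 0 over all probe sets). On both whole-seed arrays 23 members (8.36%) lay above every array of the other 5 compartments, beside 3.05% of all probe sets. The rule held those 5 compartments low in the members, so nothing is read from this count. Among the 23 members with a symbol these were 5, namely SWEET10, RR22, PME61, BAN and UBC29. BAN read 70.6 and 68.1 in whole seeds. In whole-seed sections, fewer cells of a type and less RNA per cell cannot be told apart.

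The 2 chalazal seed coat arrays differed in how bright the members were. Replicate 1 was brighter for 196 members and replicate 2 for 79, with a median log2 difference of 0.39, against 0.081 over the 3680 probe sets with a mean chalazal signal over 1000. More than 2-fold apart were 70 members, 51 brighter on replicate 1 and 19 on replicate 2. Of the 23 members with a symbol 16 were brighter on replicate 1, and BAN, DFR, GT2, bZIP44, PWD, PSY1R and UBC29 on replicate 2. Over all probe sets the medians of these arrays were 135 and 175, and the ratio of the 3' to the 5' actin control was 13.2 on replicate 1 and 5.49 on replicate 2. The same ratio of the GAPDH control was 3.55 on replicate 1 and 3.53 on replicate 2. The part of the medians or of these ratios in the difference was not tested. The log2 signals of the pair had a Pearson correlation of 0.892 across probe sets, which share the 2 libraries.

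**Figure D4:**
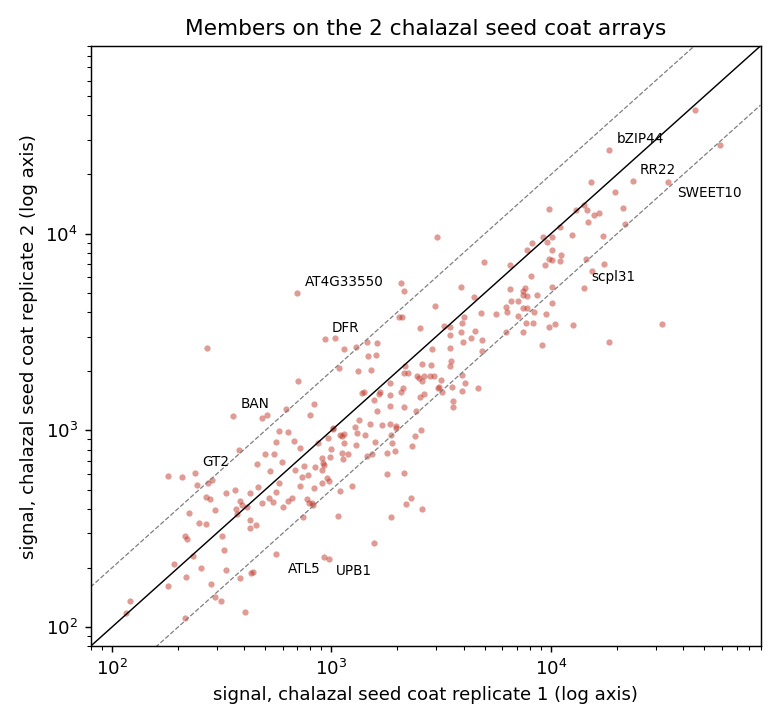
Signal of the 275 members on chalazal seed coat replicate 1 (x axis) and replicate 2 (y axis), both on log axes. The solid line marks equal signals and the dashed lines a 2-fold difference, beyond which 70 members lie. SWEET10, scpl31, UPB1 and ATL5 lie on the side of replicate 1, and BAN, DFR, GT2, bZIP44 and AT4G33550 on that of replicate 2.

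Over all 14148 probe sets tested, chalazal seed coat had the fewest calls against seed coat and the most against embryo proper. Called by limma at an adjusted p under 0.05 were 913 higher (6.45%) and 928 lower (6.56%) against seed coat, 1618 (11.4%) and 1674 (11.8%) against chalazal endosperm, 2021 (14.3%) and 2163 (15.3%) against peripheral endosperm, 1999 (14.1%) and 2078 (14.7%) against micropylar endosperm, and 2385 (16.9%) and 2437 (17.2%) against embryo proper. The order of these counts was not tested. Pearson correlations of chalazal seed coat arrays with those of seed coat were 0.762 to 0.781. With those of chalazal endosperm they were 0.722 to 0.786, so the ranges overlapped. The seed coat pair itself correlated at 0.818, the lowest of the 6 compartments. Against seed coat 49.6% of calls were higher, and after scaling to equal array medians 70.1% of 1999 were. That scaling shifted the median log2 difference by 0.35 against seed coat and by -0.15 against micropylar endosperm. Called higher in each of the 5 comparisons were 270 (1.91%), and lower in each 320 (2.26%). Without chalazal seed coat replicate 1 the calls against seed coat numbered 789, and 127 probe sets were called higher in each comparison.

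Of the members, 267 were tested, and 174 of the 275 passed the filter on dim probe sets through chalazal seed coat alone. The rule used these contrasts, so the calls describe the replicate spread and are no further evidence. Called in all 5 comparisons were 208 members, among them 20 of the 23 with a symbol. PSY1R, ATL5 and CYP71B6 were the 3 that were not. Called against seed coat were 227, against chalazal endosperm 252, against peripheral endosperm 260, against micropylar endosperm 263 and against embryo proper 252, beside the shares above. In 271 members both chalazal arrays lay above all 10 other arrays, as for 5.94% of all probe sets and 8.84% of those tested, and in 135 the dimmer of them was at least 4-fold above the brightest of the 10. The 4 members with overlap were AT3G10590, AT4G29620, AT1G54260 and a probe set with no gene.

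Markers of other tissues bore on what the captures held. Of 24 listed loci of embryo reserves and late embryogenesis abundant (LEA) proteins, 8 were tested. Of these, 5 were called lower in chalazal seed coat in all 5 comparisons, beside 2.26% of all tested probe sets. PAP85 (AT3G22640), a vicilin-type storage protein, had 361 and 273 in chalazal seed coat, 2226 and 3807 in seed coat and 79666 and 34428 in embryo proper. Summed over the 8 loci, signals were 2282 to 2377 in chalazal seed coat, 16673 to 21318 in seed coat, 37172 to 48504 in chalazal endosperm, 104336 to 138538 in peripheral endosperm, 141973 to 143685 in micropylar endosperm and 243704 to 261657 in embryo proper. The summed signal was thus lowest in chalazal seed coat, and none of these loci was a member. AT1G03890, LEA4-5 (AT5G06760) and M10 (AT2G41280), also on the list, were not called against seed coat.

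Genes of the seed coat epidermis had a named probe set for 4 loci. Of 17 mucilage loci 4 were tested, with 0 called higher and 1 lower against seed coat, beside 6.45% and 6.56% of all tested probe sets. Against chalazal, peripheral and micropylar endosperm and embryo proper 3, 4, 3 and 3 were called higher, beside 11.4%, 14.3%, 14.1% and 16.9%. The 1 lower was AT2G22900, with 1382 and 3396 in chalazal seed coat against 6635 and 9260 in seed coat, a call lost with no filter, with no intensity trend, without chalazal seed coat replicate 1 and without seed coat replicate 2. The other 3 were called higher against all 4 embryo and endosperm parts and not called against seed coat. ARA12 (AT5G67360), a subtilase of mucilage release, had 5423 and 10122 in chalazal seed coat against 19636 and 11495 in seed coat and 412 to 1557 elsewhere. Their sums were 7352 to 14231 in chalazal seed coat and 21507 to 27115 in seed coat. Of 5 endosperm loci only the MADS factor AGL62 (AT5G60440) had a named probe set, and it was not tested. It read 92.4 and 127 in chalazal seed coat, 41.7 and 119 in chalazal endosperm and 0.942 to 23.6 on the other compartment arrays, and the part of endosperm RNA in the capture was not tested. None of the loci listed for phloem and xylem, suberin and cutin, gibberellin metabolism or ovule MADS factors had a named probe set, so these were not analysed here.

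Of 7 tested genes of cell death and vacuolar proteases none was a member. Against embryo proper 6 were called higher and 1 lower, against seed coat 0 and 1, and against each endosperm part 1 and 3. Over all tested probe sets the shares called higher and lower were 16.9% and 17.2% against embryo proper and 6.45% and 6.56% against seed coat. Against chalazal, peripheral and micropylar endosperm they were 11.4% and 11.8%, 14.3% and 15.3%, and 14.1% and 14.7%. Over the alternatives the lower calls ran from 1 to 4 against chalazal endosperm and from 2 to 4 against the other endosperm parts. GAMMA-VPE (AT4G32940), a vacuolar processing enzyme, was the 1 higher against each endosperm part, with 29015 and 19238 in chalazal seed coat, 19788 and 11411 in seed coat and 1880 to 6002 elsewhere. BETA-VPE (AT1G62710), the seed form, had 2685 and 4278 in chalazal seed coat against 19042 to 24103 in peripheral endosperm.

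Some members were neighbours on a chromosome. The 135 loci, placed among the 12262 array loci with a position in the gene table, gave 5 pairs with at most 2 protein-coding genes between them, and 2 pairs were adjacent. How many such pairs 135 other array loci would give was not tested, so nothing is read from these counts. The adjacent pairs were CYP718 (AT2G42850) with AT2G42860 and AT4G24050 with AT4G24060. AT2G42860 had 1337 and 1134 in chalazal seed coat against at most 142 (margin 4.37, beside 4.41 for CYP718). AT4G24050 had 7627 and 5266 in chalazal seed coat and AT4G24060 2121 and 1647 (margins 3.26 and 3.34). The other pairs were AT1G62480 with AT1G62510, AT3G62930 with AT3G62950 and AT4G29600 with AT4G29620. Whether such probe sets share sequence was not tested, and 6 of the 275 members are of the type that can match several transcripts. AT2G42860 and the pairs were named after their values were seen.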

How the data were processed

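Arabidopsis ATH1 arrays were processed with GCOS, per the submitters' processing notes. Its version and signal algorithm: not given in the sources used here. Values as deposited are linear array intensities, 1 column per sample. Trimming 2% from each end left every array a mean of 500, so scale is known, while gene centring was not seen and the background step stays unknown. Array medians were 135 and 175 in chalazal seed coat, 194 and 203 in seed coat, 155 and 149 in chalazal endosperm, 137 and 153 in peripheral endosperm, 141 and 134 in micropylar endosperm, 163 and 144 in embryo proper and 191 and 175 in whole seeds. Arrays have no read depth, and their number limits the precision.

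Of 22810 probe sets 64 controls were left out. The platform table gave 13513 of the others 1 gene, 503 several and 8730 none. Genes were named through the RefSeq gene table of TAIR10.1.

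Intensities under 25 were raised to 25 and log2 was taken. A probe set was tested where both arrays of at least 1 compartment exceeded their array's median. A model with 1 mean per compartment was fitted to the 12 compartment arrays in limma 3.58.1 under R 4.3.3 (eBayes with an intensity trend, 6 residual degrees of freedom). P-values were adjusted by Benjamini-Hochberg within each comparison and called under 0.05. The fit was tested on simulated data.

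Members, gene lists and rules were chosen with earlier results of these data known. Named were, among members with 1 gene, the 25 largest margins, the 10 brightest in chalazal seed coat, all with a symbol or on a list, and the 3 on each side of 4-fold. Of 12 lists with 228 loci 44 had a named probe set. For list genes with more than 1 probe set, the brightest was taken. Alternatives were other floors, scalings, filters, arrays in the fit, a replicate block, no trend, and leaving out each array.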

Additional observations from a re-analysis of the deposited data

How the results depend on the processing

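Of 146 values recomputed for the 7 main counts, 134 stayed within 1.5 times of the value reported. The 275 members became 132 at 8-fold and 135 when the dimmer chalazal seed coat array had to exceed the brightest other array 4-fold. Leaving out single arrays gave 255 to 332 members, and 164 of the 275 were kept without each of the 12 arrays in turn. Probe sets called higher in all 5 comparisons, 270 in the report, were 447 with a floor of 100 and 163 with no floor, and 127 to 238 without single arrays, with 127 when chalazal seed coat replicate 1 was left out. Leaving out arrays gave 789 to 1758 calls against seed coat (789 without chalazal seed coat replicate 1), 1953 to 3533 against chalazal endosperm (1953 without that array and 2154 without chalazal endosperm replicate 1), 2544 to 4408 against peripheral endosperm (2722 without chalazal seed coat replicate 1, 2544 and 2549 without peripheral endosperm replicates 1 and 2), 2686 to 4360 against micropylar endosperm (2686 without its replicate 1) and 3443 to 5077 against embryo proper. These fits had fewer samples. The cause of the changes with the floor was not tested.

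Of 46 named members 36 kept a margin of at least 2 under each of 17 alternatives, and no margin changed sign. Below 2 in at least 1 of them were GT2, UPB1, PSY1R, ATL5, PWD, CYP71B6, AZG1 and the 3 nearest to the limit. Same-numbered arrays did not deviate together (correlations of -0.0624 to 0.0971 over 15 pairs of groups). With the replicate block, 276 probe sets were called higher in all 5 comparisons, and 1910, 3353, 4228, 4114 and 4864 were called against seed coat, chalazal, peripheral and micropylar endosperm and embryo proper. Without detection calls, signals near 25 have no known distance from background.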
